A study of Bos taurus with 47 samples.

Results

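Bovine morulae made by somatic cell nuclear transfer (scNT) were compared with scNT 8-cell embryos by mRNA sequencing. The comparison used 3 scNT morula libraries, numbered 2, 3 and 4, and 4 scNT 8-cell libraries, numbered 1 to 4. Its members were the 13702 of 20526 genes with a normalized count of at least 10 in at least 3 of these 7 libraries, and the other 6824 genes fell below that filter. The whole series held 47 libraries in 12 groups.

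According to the labels, scNT morulae were collected on day 6 after nuclear transfer and scNT 8-cell embryos on day 3, each library from a pool of 20 embryos. Both groups were made in the same way. The metaphase plate and polar body were removed from mature (MII) oocytes, and a single cultured ear fibroblast was fused with each of them. The fibroblasts were primary cultures of ear tissue from a Brahma Spanish bull cross, were used at passages 4 to 5 and were kept in 0.5% serum for the last 24 hr. The scNT embryos of both stages thus share this donor background, and they were cultured with cumulus cells. Morulae and 8-cell embryos from in vitro fertilization (IVF) with semen of a Holstein bull, at the same days and pool size, MII oocytes, the donor fibroblasts, blastocysts of both methods and cells derived from blastocysts were used to place genes or to compare the step, with 4 libraries in each. The labels do not tie libraries to separate animals or cultures, so each p-value measures only how these pools vary, and that variation may be technical.

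An early embryo starts with RNA stored in the oocyte. The genome of the embryo is silent at first, and in cattle its main activation begins around the 8-cell stage, while the stored RNA is broken down. In an scNT embryo the genome that has to be switched on is that of a differentiated cell placed in oocyte cytoplasm. The step from the 8-cell embryo to the morula, a compacting ball of cells, is therefore where stored RNA gives way to newly made RNA.

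The scNT morula libraries held 8168033, 6289592 and 5663196 reads, and the scNT 8-cell libraries 15274177, 9028054, 9312507 and 9963462. On log2 values the morula libraries correlated with each other at r between 0.924 and 0.971 and the 8-cell libraries at r between 0.918 and 0.964. The 8-cell libraries were not equally far from the morulae. Replicates 2 and 4 correlated with the morula libraries at r between 0.625 and 0.76, and replicates 1 and 3 at r between 0.509 and 0.674. Morula replicate 4 lay farthest from the 8-cell libraries on the first principal component, which held 80.4% of the variance. The genes are listed by Ensembl identifier without names, and 0 of them matched the annotation used here, so no pathway, marker gene or sequence could be described. Gene classes were built instead from the libraries of the other groups, and the embryo stage was not checked against marker genes.

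Most of the measured transcriptome differed between scNT morulae and scNT 8-cell embryos. With limma and a Benjamini-Hochberg adjusted p under 0.05, 9438 genes changed, or 68.9% of those tested. In morulae 4278 genes were higher (31.2%) and 5160 were lower (37.7%). The median log2 change was 1.96 among the genes that rose and -1.91 among those that fell, with median standard errors of 0.36 and 0.30. Fold changes are differences of log2(normalized count + 1), which understates the change of low genes. In 4389 genes, or 32%, every morula library was above every 8-cell library, and in 5283 genes, or 38.6%, every morula library was below every 8-cell library. The values are relative to each library, so they do not measure RNA per embryo, and fewer cells of a type cannot be told apart from less RNA per cell.

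**Figure D1:**
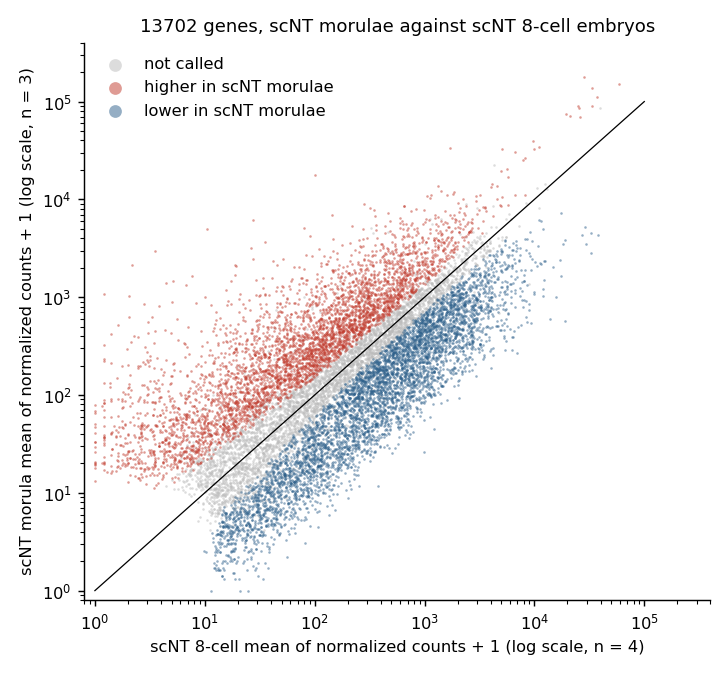
Mean normalized count + 1 of each tested gene in scNT morulae (y axis, n = 3 libraries) against scNT 8-cell embryos (x axis, n = 4), both on log scales, with the line of equal level. The 4278 genes that rose (red) reach down to 8-cell levels near 0, and the 5160 that fell (blue) spread below the line.

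The rises reached further than the falls. At 4-fold or more, 2082 genes were higher (15.2%) and 2404 were lower (17.5%), a balance that turned to 2368 higher and 2028 lower with median-of-ratios scaling and to 2367 and 1999 with DESeq2. At 16-fold or more the counts were 473 higher and 109 lower, at 64-fold or more 88 and 0, and at 256-fold or more 16 and 0. The middle 90% of the log2 changes, from the 5th to the 95th percentile, ran from 0.72 to 4.91 among genes that rose and from -3.64 to -0.72 among genes that fell. The RNA of most genes that fell 16-fold or more was still measured in morulae. Their median level was 16.4 in scNT morulae and 234 in scNT 8-cell embryos, and 44 of the 109 were under 10 in morulae. Genes that rose 16-fold or more had a median level of 258 in scNT morulae and 6.15 in scNT 8-cell embryos, and 259 of the 473 were under 10 in 8-cell embryos.

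A switch from almost no reads was seen only upwards under the limits used. There were 29 genes with at most 3 reads in every scNT 8-cell library and a normalized count of at least 50 in every scNT morula library. Their median was 119, 125 and 125 in scNT morula replicates 2, 3 and 4, against 0, 0.8, 0 and 0 in scNT 8-cell replicates 1 to 4. No gene met the same limits the other way round, which gave 0 genes. On the read limit alone, 144 tested genes had at most 3 reads in every scNT 8-cell library. For every scNT morula library the number was 113, so near-absence itself was seen both ways. At 0 reads in every library of a group, the numbers were 16 for scNT 8-cell embryos and 3 for scNT morulae. The morulae had fewer libraries with fewer reads each, so a read limit was easier to meet there. These 29 were chosen on the values compared and are given as a description. In libraries that took no part in that choice, none of the 29 reached 50 in oocytes, scNT 2-cell embryos or fibroblasts. In blastocysts 19 of the 29 had a mean of at least 50 in scNT embryos and 19 in IVF embryos. Their median was 0.125 in oocytes, 83.4 in scNT blastocysts and 5.35 in scNT blastocyst-derived cells.

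Of the 4 genes named here, ENSBTAG00000021092 and ENSBTAG00000039346 had the largest rises and ENSBTAG00000040202 and ENSBTAG00000009675 the largest falls. They were taken from called genes that averaged 50 or more over the 7 libraries and in which morula and 8-cell libraries did not overlap. ENSBTAG00000021092 had normalized counts of 2102, 2346 and 1930 in the scNT morulae, against 0, 0.8, 0.9 and 3 in the scNT 8-cell embryos. All morula libraries were alike and far above all 8-cell libraries, which held at most 4 reads of it (log2 change 10.11 ± 0.47 SE, limma adjusted p = 1.52e-05). ENSBTAG00000039346 had 3317, 3157 and 2436 in the scNT morulae, against 0, 5.7, 2.8 and 1.5 in the scNT 8-cell embryos (log2 change 10.03 ± 0.58 SE, limma adjusted p = 3.15e-05). The pair differed afterwards. ENSBTAG00000021092 stood at 2823 ± 500 (SD, n = 4) in scNT blastocysts and at 2288 ± 173 (SD, n = 4) in scNT blastocyst-derived cells. ENSBTAG00000039346 stood at 7922 ± 1123 (SD, n = 4) in scNT blastocysts and at only 3.78 ± 2.78 (SD, n = 4) in the scNT blastocyst-derived cells. Neither was found in donor fibroblasts beyond a few reads, with means of 1.35 ± 1.89 and 0.35 ± 0.7 (SD, n = 4).

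ENSBTAG00000040202 had normalized counts of 16, 14.9 and 1.5 in the scNT morulae, against 682, 277, 341 and 199 in the scNT 8-cell embryos (log2 change -5.26 ± 0.72 SE, limma adjusted p = 0.000361). ENSBTAG00000009675 had 934, 583 and 209 in the scNT morulae, against 24900, 13866, 24083 and 13339 in the scNT 8-cell embryos (log2 change -5.23 ± 0.50 SE, limma adjusted p = 9.73e-05). Morula replicate 4 was the lowest of the morulae for both, and 8-cell replicates 2 and 4 were the lowest of the 8-cell libraries. Both were oocyte transcripts, with 534 ± 55.1 and 17477 ± 2052 (SD, n = 4) in MII oocytes. In scNT blastocysts they were down to 2.55 ± 3.63 and 30.8 ± 16.7 (SD, n = 4).

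**Figure D2:**
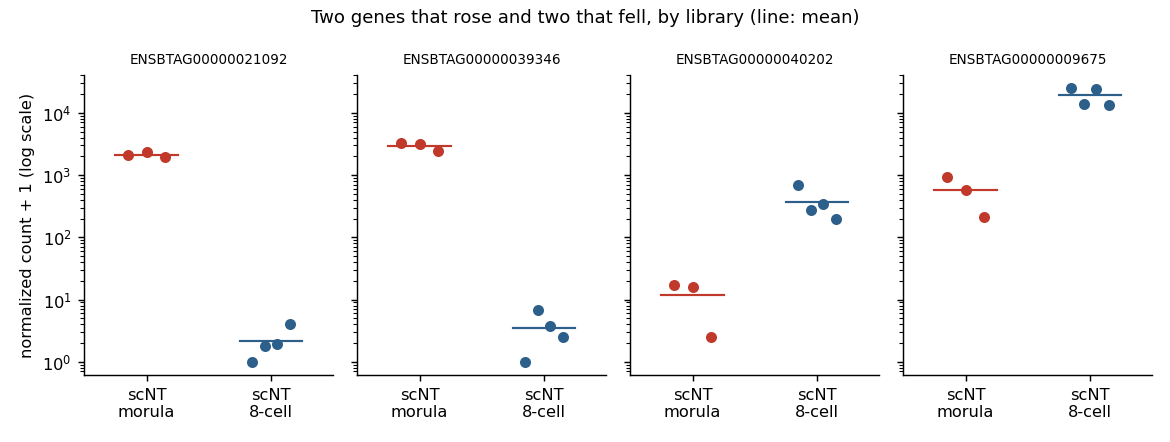
Normalized count + 1 (log scale) of 4 genes in each scNT morula library (red, left) and scNT 8-cell library (blue, right), with a line at the group mean. The first 2 genes are near 0 in every 8-cell library and at least 1930 in every morula library, and the other 2 are lower in every morula library than in any 8-cell library.

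Sorted by their level in MII oocytes, genes that the oocyte stored most abundantly fell most often. Of the 2080 genes with an oocyte mean of 1000 or more, all of them tested, 1397 fell and 255 rose, with a median log2 change of -1.19 against -0.17 over all tested genes. Those genes together held 53.9%, 54.8% and 51.7% of the values in the scNT morula libraries, against 68.7%, 65%, 70% and 65.2% in the scNT 8-cell libraries, so the groups did not overlap. Of 5764 tested genes with an oocyte mean from 100 to under 1000, 2546 fell and 1576 rose. From 10 to under 100 the counts were nearly even, with 1156 lower and 1412 higher of 4230 tested. At the other end stood 4777 genes with an oocyte mean under 1. Only 389 of them passed the filter, mostly through their morula values, so their share of rises describes the filter as well. Over all 4777, they held 0.87%, 0.892% and 1.01% of the values in scNT morulae, against 0.0928%, 0.247%, 0.0918% and 0.0846% in scNT 8-cell embryos.

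Seen from the genes that moved, the 2404 that fell at least 4-fold were nearly all present in the oocyte. Among them 1982 had an oocyte mean of at least 50 and 33 an oocyte mean under 10. The 2082 that rose at least 4-fold were mixed, with 639 at an oocyte mean of at least 50 and 906 under 10. Over all 13702 tested genes, 9380 had an oocyte mean of at least 50 and 1628 one under 10.

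The fate of a stored transcript in IVF embryos was used to split the oocyte genes further, without any scNT library. The class of 883 genes with an oocyte mean of at least 50 and a level at least 16-fold lower in IVF blastocysts holds stored RNA that is lost from the embryo. Their median was 49.9, 47.3 and 22.7 in the scNT morulae, against 394, 283, 371 and 266 in the scNT 8-cell embryos. The groups were far apart, and 872 of the 881 tested genes fell while 1 rose, where 37.7% of all tested genes fell. The median log2 change was -3.17. Without 8-cell libraries 1 and 3, 861 fell, and without 2 and 4, 865. The 883 genes together held 2%, 1.75% and 0.864% of the values in scNT morulae, against 14.7%, 12%, 14.2% and 11.2% in scNT 8-cell embryos. The class median was 335 in scNT 8-cell embryos, near the 372 of oocytes. These values are relative to each library and do not show how much of this RNA an embryo had lost. It was not gone by the morula, with a median of 41.5 in scNT morulae and 5.75 in scNT blastocysts.

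Stored genes that IVF embryos keep behaved otherwise. The class of 3598 genes with an oocyte mean of at least 50 and an IVF blastocyst level within 2-fold of it had medians of 347, 343 and 363 in scNT morulae, against 365, 335, 361 and 335 in scNT 8-cell embryos. The groups overlapped, the median log2 change was -0.04, and 938 genes fell while 880 rose. The class of 845 genes that the oocyte held at 50 or more and that were at least 4-fold higher in IVF blastocysts had already risen. Their median was 894, 929 and 940 in scNT morulae, against 154, 262, 151 and 287 in scNT 8-cell embryos. Of 844 tested, 701 rose and 5 fell, where 31.2% of all tested genes rose. The rises numbered 657 without 8-cell libraries 1 and 3 and 738 without 2 and 4. The 845 genes made up 32.4%, 36.8% and 33.3% of the values in scNT morulae, against 7.04%, 10.2%, 6.27% and 11.7% in scNT 8-cell embryos. Within the 8-cell group replicates 2 and 4 were the higher ones.

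**Figure D3:**
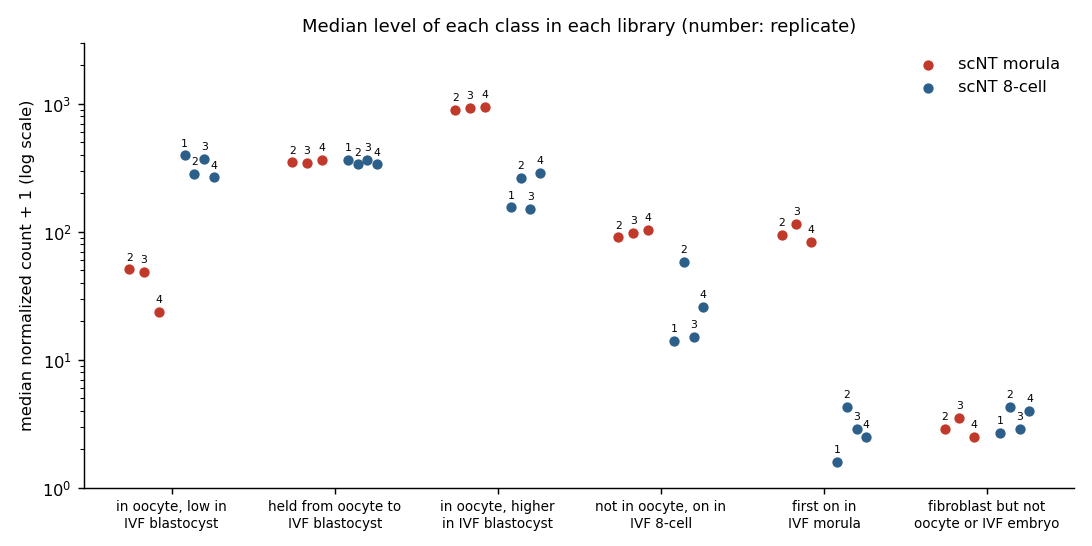
Median normalized count + 1 (log scale) of 6 gene classes in each scNT morula library (red, left in each pair) and scNT 8-cell library (blue, right), with the replicate number above each point. Stored genes that are lost in IVF blastocysts were lower in every morula library, genes first on in IVF morulae were higher in every morula library, and the fibroblast class overlapped between the groups.

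Genes under 10 in the oocyte were split by their levels in IVF 8-cell embryos, morulae and blastocysts. The 90 genes under 10 in oocytes and IVF 8-cell embryos and at least 50 in IVF morulae had medians of 93.1, 114 and 82.4 in scNT morulae, against 0.6, 3.3, 1.9 and 1.5 in scNT 8-cell embryos. The groups were well apart. Of the 86 that passed the filter 84 rose and 0 fell, where 31.2% of all tested genes rose, but most could pass only through their morula values and so had to differ. The 245 genes under 10 in oocytes and at least 50 in IVF 8-cell embryos are early genes of the embryo. Their median was 89.4, 97.2 and 103 in scNT morulae, against 13, 57.4, 14.1 and 24.9 in scNT 8-cell embryos. The 8-cell libraries differed widely among themselves here, with replicate 2 closest to the morulae. Of the 237 that passed the filter 117 rose, 10 fell and 110 were not called, where 31.2% of all tested genes rose and 37.7% fell. Any of them under 10 in every scNT 8-cell library could pass only through morula values, so their direction was fixed. Without 8-cell libraries 1 and 3 the counts were 102 and 27, and without 2 and 4 they were 143 and 13. For comparison, these 245 genes had a median of 87.4 in IVF morulae and 110 in IVF 8-cell embryos.

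Within that early class, 66 genes were again under 10 in IVF blastocysts, which marks a transient burst in IVF embryos. Their median was 22.6, 16.2 and 12.9 in scNT morulae, against 40.3, 43.4, 16 and 10.6 in scNT 8-cell embryos, so the groups overlapped. Of 59 that passed the filter 2 rose, 10 fell and 47 were not called, where 31.2% of all tested genes rose and 37.7% fell. Leaving out any 1 library gave 2 to 7 higher and 3 to 17 lower. The most rises came without 8-cell replicate 2, the fewest falls without morula replicate 3 and the most falls without 8-cell replicate 4. The same genes had a median of 24.7 in IVF morulae and 139 in IVF 8-cell embryos. Genes that IVF embryos showed only at the blastocyst stage stayed low. The 47 genes under 10 in oocytes, IVF 8-cell embryos and IVF morulae and at least 50 in IVF blastocysts had medians of 2.8, 6.2 and 1.5 in scNT morulae, against 1.7, 3.3, 0.9 and 2.3 in scNT 8-cell embryos, and 2 of them passed the filter.

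The donor nucleus came from a fibroblast, and genes of that cell were looked at in 2 ways. The first class, 163 genes, had a mean of 50 or more in fibroblasts and a mean under 10 in oocytes and all IVF embryo stages. Their median was 94.8 in fibroblasts. In scNT embryos their median was 1.9, 2.5 and 1.5 in scNT morulae, against 1.7, 3.3, 1.9 and 3 in scNT 8-cell embryos. The groups overlapped at a level of a few reads, and 11 of the 163 passed the filter, 1 higher and 4 lower. Over all tested genes 31.2% rose and 37.7% fell, and 11 genes are too few to set beside these shares. The 284 genes of the fibroblast that were under 10 in oocytes but at least 50 in IVF blastocysts went up with the embryo. Their median was 80.9, 93.4 and 88.4 in scNT morulae, against 7.9, 24.6, 6.6 and 25.7 in scNT 8-cell embryos. All morulae were above all 8-cell libraries, and 200 of the 272 that passed the filter rose while 0 fell, where 31.2% of all tested genes rose. Those under 10 in every 8-cell library could pass only through their morula values, so their direction was fixed. Without 8-cell libraries 1 and 3 the counts were 169 and 7, and without 2 and 4 they were 240 and 0.

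A wider class of 564 genes at least 32-fold higher in fibroblasts than in oocytes depended on which 8-cell libraries were used. Its median was 32.9, 34.9 and 28.7 in scNT morulae, against 11.9, 28.7, 8.5 and 34 in scNT 8-cell embryos. Replicates 2 and 4 of the 8-cell group stood at the morula level and replicates 1 and 3 below it. Of 421 that passed the filter 154 rose and 25 fell, where 31.2% of all tested genes rose and 37.7% fell. Members under 10 in every 8-cell library could pass only through their morula values, so their direction was fixed. Without 8-cell libraries 1 and 3 the counts were 124 and 107, and without 2 and 4 they were 244 and 11.

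The lists of the most abundant genes also changed in large part. The 100 most abundant genes of each library held 25.6%, 29% and 27.2% of the values in scNT morulae, against 17%, 16.6%, 17.1% and 17% in scNT 8-cell embryos. The means were 27.3 ± 1.71% (SD, n = 3) in scNT morulae and 16.9 ± 0.227% (SD, n = 4) in scNT 8-cell embryos (exact permutation test, two-sided, p = 0.0286, the smallest that 35 splits allow). For the 10 most abundant genes the shares were 13.6 ± 2.3% in scNT morulae and 4.82 ± 0.221% in scNT 8-cell embryos (SD, n = 3 and 4; exact permutation p = 0.0286). Taking the 100 genes with the highest group mean, 25 were on the lists of both scNT morulae and scNT 8-cell embryos. The scNT 8-cell list shared 74 of its 100 genes with that of oocytes and the scNT morula list 21. Yet 97 of the 100 genes on the morula list had an oocyte mean of at least 50. The 100 genes on the 8-cell list together held 18.7%, 22.3% and 17.4% of the values in scNT morulae. In scNT 8-cell embryos they held 16.7%, 16.4%, 16.9% and 16.6%. As a set they thus lost no share, although 75 of them were called lower and 17 higher.

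The number of genes seen differed by less than the spread between libraries. Thinned to 5663196 reads, scNT morulae had 17010, 17674 and 17006 genes with at least 1 read, against 15762, 17534, 16625 and 16641 in scNT 8-cell embryos. The means were 17230 ± 384 genes (SD, n = 3) in scNT morulae and 16640 ± 723 (SD, n = 4) in scNT 8-cell embryos, which overlapped (exact permutation test, two-sided, p = 0.286). Without thinning the means were 17438 and 17441.

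After the morula most of the risen genes kept their level. Levels of the 2082 genes that rose at least 4-fold are given here with no test, since the morula libraries chose them. Their median log2 level was 3.90 in oocytes, 3.62 in scNT 2-cell embryos, 4.43 in scNT 8-cell embryos, 7.79 in scNT morulae and 7.85 in scNT blastocysts. In scNT blastocysts 1480 of them were within 2-fold of the morula level, 272 were at least 2-fold above it and 330 at least 2-fold below it. The 2404 genes that fell at least 4-fold were lower again at the median. Their median log2 level was 8.27 in oocytes, 8.31, 8.23 and 5.38 in scNT 2-cell embryos, 8-cell embryos and morulae, and 3.87 in scNT blastocysts. Of these, 1218 were at least 2-fold lower in blastocysts than in morulae, 990 were within 2-fold and 196 were at least 2-fold above the morula level.

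**Figure D4:**
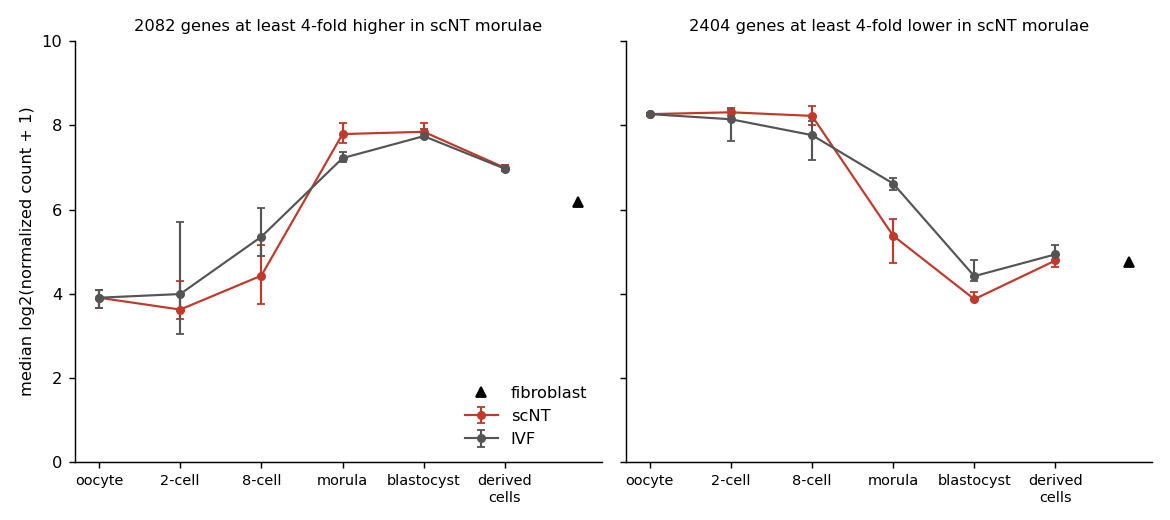
Median log2(normalized count + 1) of the genes at least 4-fold higher (left) or lower (right) in scNT morulae, by stage, in scNT (red) and IVF (grey) groups, with bars from the lowest to the highest library median. The scNT line stands at 7.79 in morulae and 4.43 in 8-cell embryos (left), and at 5.38 in morulae and 8.23 in 8-cell embryos (right). It is steeper there than the IVF line in both panels, which the choice of these genes on scNT values favours.

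The same step in IVF embryos, which shares no library with the scNT step, went largely the same way but less far. In IVF embryos 6148 of 13407 genes tested changed, or 45.9%. Over 13184 genes tested in both, the log2 changes correlated across genes at r = 0.848, a description over genes that are not independent. The median size of the log2 change was 1.38 in the scNT step and 0.72 in the IVF step. Of the 9111 genes that the scNT step called among these, 59.6% were called with the same sign in the IVF step, and 1 gene was called with the opposite sign. Of the 6060 called in the IVF step, 89.7% were called with the same sign in the scNT step.

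The 788 genes that rose at least 4-fold in IVF morulae give a view of the scNT step that is not chosen on scNT values. Their median log2 level was 7.09, 7.52 and 7.93 in the scNT morulae, against 2.61, 4.05, 3.09 and 3.87 in the scNT 8-cell embryos. In IVF libraries the same medians lay between 6.89 and 7.44 in morulae and between 3.5 and 4.80 in 8-cell embryos. Of 737 tested in the scNT step 701 rose, where 31.2% of all tested genes rose. Members under 10 in every scNT 8-cell library could pass the filter only through their morula values, so their direction was fixed. Of the 140 genes that fell at least 4-fold in IVF morulae, 123 were tested in the scNT step and 52 fell, near the 37.7% of all tested genes that fell. Their median log2 level was 4.16, 4.10 and 3.54 in the scNT morulae, against 5.6, 5.74, 4.75 and 5.13 in the scNT 8-cell embryos. In IVF libraries it lay between 2.51 and 4.74 in morulae and between 6.44 and 6.89 in 8-cell embryos. These genes were chosen on the IVF values, which favours high IVF 8-cell levels and a larger IVF change, so the gap between the methods is a description.

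**Figure D5:**
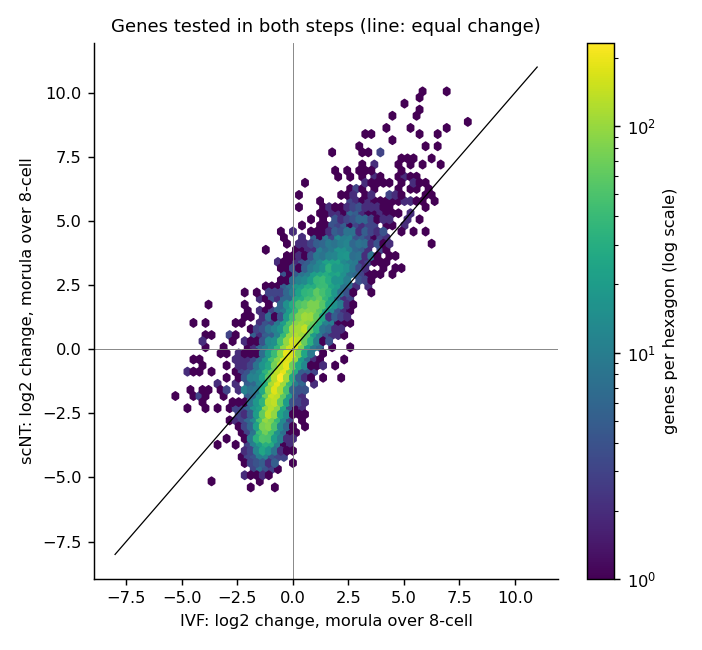
Log2 change from 8-cell embryo to morula in IVF embryos (x axis) and in scNT embryos (y axis) for the 13184 genes tested in both, as hexagons coloured by the number of genes on a log scale, with the line of equal change. Most genes lie on a slope steeper than the line, and a small group on the left fell further in IVF embryos than in scNT embryos.

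An interaction term over the 15 libraries of both steps tested where the scNT step differed from the IVF step. It called 2644 of 14519 genes, or 18.2% (limma, Benjamini-Hochberg adjusted p under 0.05), of which 692 were more positive and 1952 more negative in scNT embryos. The more positive share was 26.2% here, 37% with edgeR and 42.1% with DESeq2 on the recovered reads. As a description of genes chosen by this test, the 692 had median log2 levels of 8.59 in scNT morulae and 6.01 in scNT 8-cell embryos, against 7.89 in IVF morulae and 7.13 in IVF 8-cell embryos. The 1952 had 6.52 in scNT morulae and 9.15 in scNT 8-cell embryos, against 7.72 in IVF morulae and 8.69 in IVF 8-cell embryos. Among the named genes, ENSBTAG00000021092 rose further in scNT embryos by a log2 difference of 4.26 ± 0.77 SE (limma adjusted p = 0.00898), with 1.18 ± 1.28 in scNT 8-cell embryos and 29.5 ± 16.5 in IVF 8-cell embryos (SD, n = 4). ENSBTAG00000039346 did not pass, at 3.14 ± 1.30 SE (limma adjusted p = 0.098). ENSBTAG00000040202 and ENSBTAG00000009675 fell further in scNT embryos, by log2 differences of -4.42 ± 0.83 SE and -3.34 ± 0.70 SE (limma adjusted p = 0.0096 and 0.0123).

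How many genes differed between the steps moved with single libraries and with the pairing. Same-numbered scNT and IVF 8-cell libraries deviated together, at r of 0.32, 0.50, 0.50 and 0.23. Differently numbered ones lay between -0.43 and 0.22, so the last same-numbered pair hardly stood apart from them. A replicate block among the 8-cell libraries only gave 4300 calls, of which 1785 were more positive. Without scNT 8-cell libraries 1 and 3, and with no block and all IVF libraries kept, limma called 0 genes, with 3393 at an unadjusted p under 0.05, edgeR also called 0 and DESeq2 called 1190. Without scNT 8-cell libraries 2 and 4 limma called 4456. Leaving out 1 library, it called 1205 without scNT morula 4, 1250 without scNT 8-cell library 3, 1338 without scNT 8-cell library 1, 1377 without IVF morula 2, 1611 without IVF 8-cell library 2, 1706 without IVF morula 3, 1747 without IVF 8-cell library 3 and 4349 without IVF 8-cell library 4. For the scNT step itself, 8390 genes were called without 8-cell libraries 1 and 3 and 9428 without 2 and 4.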

How the data were processed

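The authors deposited normalized counts, a signal with 1 value per gene and library, written with 1 decimal. The submitters' processing notes name STAR, DESeq2, FastQC and MultiQC and the genome build UMD3.1. For tool versions, annotation and read counting, the sources used here give nothing. Per the labels' protocols, libraries were made from RNA over 200 nt by a low-input method with several rounds of PCR, so read depth covers counting error only. The limma standard errors cover the spread between these libraries. The labels are not uniform about how many pools each stage had, and libraries were counted as they stand in the table. Each library's deposited values fell on a grid with a single spacing. In the 7 libraries 99.7% to 100% of nonzero values were whole multiples of it (tolerance 0.05), which gave the recovered reads.

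Genes that reached 10 in 3 or more libraries were tested in R 4.3.3 on log2(value + 1) by limma 3.58.1 with its robust and trend options (two-sided), with Benjamini-Hochberg adjustment over all genes tested and only the groups compared in the fit. The difference between steps was an interaction term over the scNT and IVF morula and 8-cell libraries. The IVF step was fitted alone, on genes that reached 10 in 4 or more libraries. Alternatives used edgeR 4.0.16 and DESeq2 1.42.0 on recovered reads. Members, gene lists and tests were chosen with earlier results of these data known. The 27 lists of named genes could not be used, because 0 of 20526 identifiers matched the reference table (ARS-UCD2.0). The rule for naming genes took the largest changes among called genes that averaged 50 or more and whose groups did not overlap, limited to 2 per direction. Its condition on gene symbols could not be applied.

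On simulated data with 200 changed genes among 13702, the fit of the scNT step recovered 6% of those changed by log2 1, 60% at 2, 90% at 3 and 94% at 4, and 6.72% of its calls had not been changed. The data held far more changes, with 68.9% of genes called, which makes the adjustment less strict. The recovery rates therefore do not describe the scNT step itself. Replicate pairs differed by chi-square per degree of freedom of 19.2 to 89.1, so no pair was within sampling noise. Same-numbered scNT morula and 8-cell libraries had deviations that correlated at r of -0.15, -0.11 and 0.10, so the numbers were not taken to pair them.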

Additional observations from a re-analysis of the deposited data

Results flagged for a closer look

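From the 8-cell embryo to the morula, scNT and IVF embryos changed by different amounts in 2644 genes, by the interaction term over both methods. These genes were chosen by that test on the same libraries, so the levels that follow are a description. The more negative genes had a median log2 change of -2.64 in the scNT step and -0.94 in the IVF step, and the more positive ones 2.49 and 0.62. At the 8-cell stage the more positive genes stood lower in scNT than in IVF embryos by a median log2 difference of -1.11, and in morulae higher by 0.66. Without scNT 8-cell libraries 1 and 3 limma and edgeR called 0 genes and DESeq2 called 1190. Groups of 4 libraries were also searched for a single far library in 23 sets of values, and 0 were found, where chance gives about 1 in 20. The 3 scNT morula libraries were outside that search. It looks for a single library, so it cannot find a group that divides into pairs.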

How the results depend on the processing

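Over the alternatives, the scNT step called from 7799 of 10612 genes with a filter of 50 to 10210 of 20203 with no filter. The main fit called 9438 of 13702, and 0 genes called both there and in an alternative changed sign. Of the same 13702 genes, 9258 were called with edgeR, 9539 with DESeq2, 8580 to 9401 leaving out 1 library, and 8391 with the replicate block. The median log2 change of all genes was -0.17 as deposited and 0.03 with median-of-ratios scaling, where 50.1% of calls were higher, against 45.3%. The 4 named genes kept their calls. The difference between the steps was less stable. The more positive genes numbered 1596 with DESeq2 and 387 with the replicate block, which called 1799 in all. Leaving out 1 library gave 1205 to 4349 in all, 138 to 1823 more positive and 1055 to 2526 more negative. Other fits were chosen after seeing the data. A replicate block among the 8-cell libraries only, where same-numbered scNT and IVF libraries deviated together (r of 0.32, 0.50, 0.50 and 0.23), gave 4300 and 1785 more positive. Without scNT 8-cell libraries 2 and 4 the counts were 4456 in all and 1871 more positive, and without 1 and 3 they were 0 in all, 0 more positive and 0 more negative with limma (3393 at an unadjusted p under 0.05). The cause was not tested. The share of the 100 most abundant genes differed by 9.49 to 11.2 percentage points leaving out 1 library, and by 10.4 within same-numbered pairs (replicate block, exact sign flips, p = 0.25), designs whose smallest p is above 0.05. Without thinning the difference in genes detected was -3.33, against 589 at equal depth, which is 297 within same-numbered pairs (replicate block).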
